A study of Mus musculus with 6 samples.

Results

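The Dppa genes are named for a link between their expression and pluripotency in the early embryo and in embryonic stem (ES) cells. The 4 genes described here, Dppa2, Dppa3, Dppa4 and Dppa5a, were chosen by symbol from the deposited table of a mouse array study, and each was read from whichever of its probe sets was brightest on average over the 6 arrays. They were 4 of 18193 measured genes and were covered by 5 probe sets, 2 of them for Dppa2. RNA from 3 haploid ES cell lines, which carry a single set of chromosomes, was set against RNA from 3 diploid ES cell samples, with 1 Affymetrix array each.

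The haploid samples were the lines HAP1 (passage 24) and HAP2 (passage 21), both of F1 CBAxB6 background, and HTG1 (passage 11), of mixed transgenic background. The diploid samples carry replicate numbers only. They were labelled as male, with the strain given as 129Sv for replicates 1 and 2 and as 129 for replicate 3, and the labels do not say that they were separate lines. All 6 were grown in 2i medium, in which inhibitors of the kinases MEK and GSK3 hold ES cells in a naive state, and RNA was taken on day 2 after passaging. Ploidy, strain background and the labelled sex differed together, so they cannot be told apart in any comparison of haploid with diploid samples. Passage is given for the haploid lines only. HTG1 differed from HAP1 and HAP2 in strain background and passage together, and these cannot be told apart either. The sources used here give neither the transgene of HTG1 nor the share of cells that had stayed haploid. The p-values measure the spread between arrays, and the number of arrays limits their precision.

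Despite their shared name, the 4 genes do not form 1 protein family. Dppa2 and Dppa4 are related nuclear proteins with a SAP domain that act as a heterodimer at CpG-rich promoters, where they keep developmental genes open to later activation and promote genes of the 2-cell-stage embryo. Dppa3, also called Stella or PGC7, is a maternal factor and germ cell marker that binds Uhrf1 and so restrains the maintenance of DNA methylation. Dppa5a, also called Esg1, is an RNA-binding protein with a KH domain. Its relatives Ooep and Khdc3 belong to a maternal protein complex of the oocyte.

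The arrays had medians between 6.31 and 6.34 (log2). Control probe sets for beta-actin, read at the 3' end less the 5' end as a sign of RNA quality, gave 0.18 to 0.24 on the haploid arrays, against 0.34 to 0.46 on the diploid arrays (log2), with no overlap. The part of this measure in the differences between haploid and diploid samples, that of Dppa3 included, was not tested. All 8 measured ES cell markers gave a mean level of 12.79 to 13.01 on the haploid arrays and of 12.72 to 12.73 on the diploid arrays. In limma 3 of these 8 were higher and none lower, namely Klf4, Nanog and Pou5f1, with a median log2 difference of 0.35. The shares of all genes that passed were 7.92% as higher and 6.96% as lower at an adjusted p of 0.05. Nanog and Pou5f1 lost the call under some of the alternatives given below. Among the 8 differences 6 were positive. Those of Utf1 (-0.62) and Zfp42 (-0.25), named after their values were seen, were negative and did not pass. The 10 feeder fibroblast markers averaged 5.40 to 5.60 on the haploid arrays, against 6.80 in diploid replicate 1 and 5.97 and 6.04 in diploid replicates 2 and 3. In bulk RNA such as this, fewer cells of a type and less RNA per cell cannot be told apart. The 10 feeder markers had a median difference of -0.63, against -0.03 for all genes, with 2 positive and 6 at an unadjusted limma p under 0.05. After adjustment 1 of 10 was lower, the collagen gene Col1a2, which differed by -2.62 (log2, limma adjusted p = 0.00326). The 3 probe sets of Col1a2 differed by between -2.86 and -0.18. By the same adjusted test 2 of 10 primitive endoderm markers were lower, 1 of 9 trophoblast markers was higher and 2 lower, and 1 of 8 primed epiblast markers was higher. Of 7 primordial germ cell markers 1 was higher and 1 lower. These counts stand against the shares of all genes just given. On the haploid arrays 8 of the 10 feeder markers, Col1a2 among them, lay above 4.8, the smallest lower quartile of any array, on each array, between 5.02 and 7.52. The other two, Col3a1 (3.84 to 4.24) and Lum (3.37 to 3.98), named after their values were seen, lay under it. The part of other cell types in the results below was not tested.

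Dppa3 was the member that differed most between haploid and diploid ES cells, and the one that varied most from line to line. Its level was 12.51 in HAP1, 12.03 in HAP2 and 10.85 in HTG1, against 9.77, 8.86 and 8.75 in diploid replicates 1, 2 and 3 (log2). Every haploid array lay above every diploid array, as was so for 17.7% of all genes. The gap between HTG1, the lowest haploid value, and diploid replicate 1, the highest diploid value, was 1.08. The means were 11.79 ± 0.85 in haploid and 9.13 ± 0.56 in diploid samples (log2, SD, n = 3 each).

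**Figure D1:**
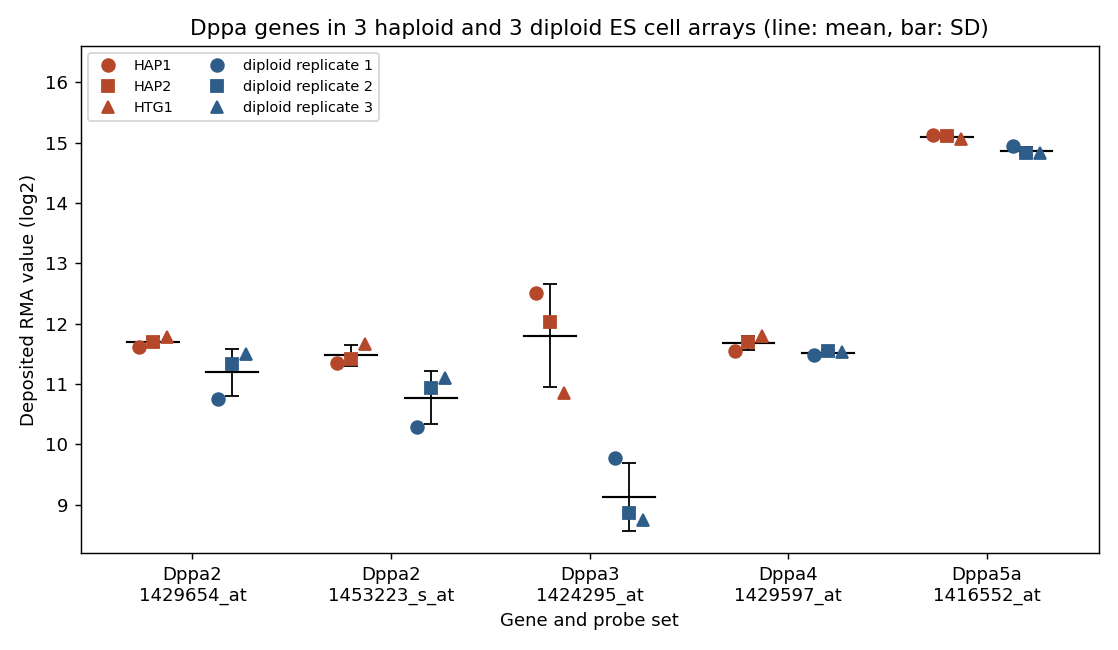
Deposited RMA values (log2, vertical axis) of the 5 Dppa probe sets, with haploid arrays in red to the left of diploid arrays in blue; each point is 1 array, the horizontal line is the group mean and the bar the SD (n = 3). Dppa3 runs from 10.85 to 12.51 on haploid arrays and from 8.75 to 9.77 on diploid arrays, while Dppa4 and Dppa5a lie within narrow bands.

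Dppa3 was 6.34-fold higher in the haploid samples, with a 95% interval from 3.04-fold to 13.3-fold (log2 difference 2.67 ± 0.45, SE; limma adjusted p = 0.0116). In this comparison 7.92% of all genes passed as higher, or 1441 genes against 1266 that passed as lower. With each chromosome's own median haploid minus diploid difference subtracted from the haploid arrays the split was 1136 higher and 1605 lower. Those medians came from genes above the median level and include any offset common to all chromosomes. By size of difference Dppa3 stood at rank 27 of 18193. The call was lost without diploid replicate 2 (log2 difference 2.53, limma adjusted p = 0.0503) and without diploid replicate 3 (2.48, 0.0572). It was kept without diploid replicate 1 and without any one of the haploid lines, where the adjusted p lay between 0.00609 and 0.0416.

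The Dppa3 difference was of unlike size in the 3 haploid lines, each read from 1 array. The direct comparison of HTG1 with HAP1 and HAP2, given below, did not pass. HAP1 exceeded the diploid mean by 3.38, HAP2 by 2.90 and HTG1 by 1.72 (log2). In a fit that treated HTG1 as a group of its own, HAP1 and HAP2 together were 8.80-fold above the diploid samples (log2 difference 3.14 ± 0.33, SE; limma adjusted p = 0.00609), where 6.11% of all genes passed as higher. HTG1 was 3.30-fold above the same diploid samples (1.72 ± 0.42; limma adjusted p = 0.0584), where 4.87% passed as higher. The numbers of genes passing as higher depended on single arrays. For HAP1 and HAP2 there were 1111 on all arrays, and 412 once HAP2 was left out. Leaving out diploid replicate 2 gave 392, and leaving out diploid replicate 3 gave 257. For HTG1 there were 886, which became 255 when diploid replicate 2 was dropped and 172 when diploid replicate 3 was. Both comparisons use the same 3 diploid arrays, and HTG1 is a single array whose spread was taken from the other groups. HTG1 passed against the diploid samples without diploid replicate 1 (2.04, limma adjusted p = 0.0172), with array weights (1.92, 0.0164) and among genes above the median level (0.0459).

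Set directly against the other haploid lines, HTG1 had 10.85 where HAP1 and HAP2 had 12.51 and 12.03, a log2 difference of -1.42 ± 0.44 (SE) with a 95% interval from -2.49 to -0.34. It did not pass over all genes (limma adjusted p = 0.402), in a comparison where 0.132% of genes passed as lower. The range of Dppa3 across the 3 haploid lines was 1.65 (log2), and 1.51% of the 9096 genes above the median level had a haploid range as large. Across the diploid samples the range was 1.02, and 1.82% of those genes had a diploid range as large.

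Part of the diploid range lay in diploid replicate 1, which exceeded the mean of replicates 2 and 3 by 0.97. Dppa3 lies on chromosome 6, whose 423 genes above the median level had a median shift of 0.29 in diploid replicate 1, against -0.11 and -0.10 in diploid replicates 2 and 3 (log2, relative to autosomal genes). The same shift was -0.02, -0.04 and 0.00 in HAP1, HAP2 and HTG1. Diploid replicate 1 was also the array with the highest mean of feeder markers. With the median haploid minus diploid difference of chromosome 6 genes (-0.02) subtracted from the haploid arrays Dppa3 differed by 2.69 (limma adjusted p = 0.0125). That median was not taken relative to autosomal genes, and its subtraction left the shift of diploid replicate 1 in place.

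**Figure D2:**
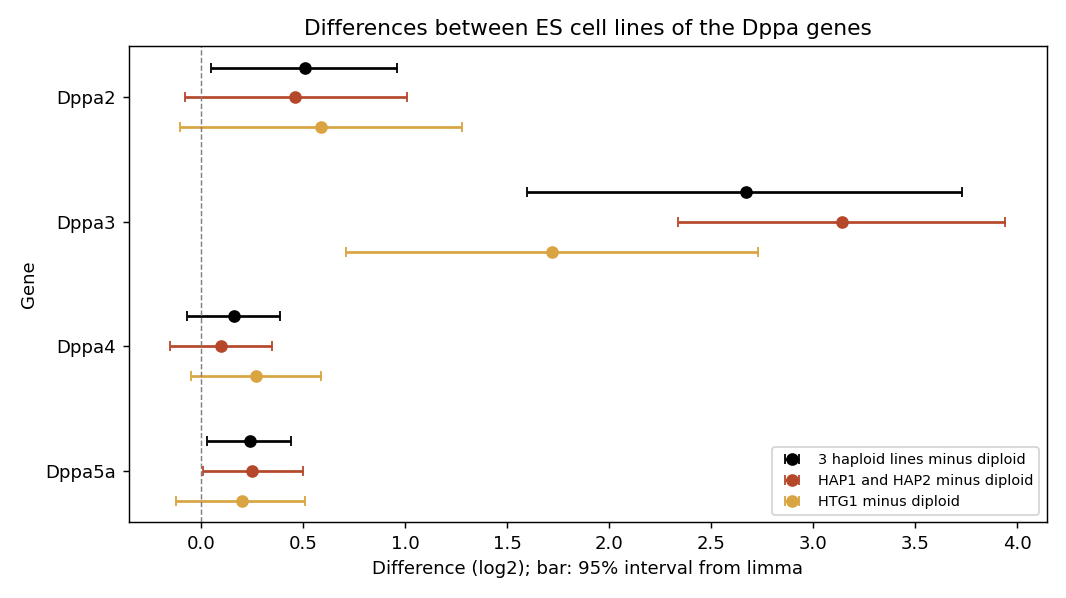
Log2 differences from the diploid samples (horizontal axis) for all 3 haploid lines, for HAP1 and HAP2, and for HTG1, with the 95% interval from limma as a bar. The 3 intervals of Dppa3 lie above 0, with 3.14 for HAP1 and HAP2 and 1.72 for HTG1, and those of Dppa4 include 0.

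Among the genes beside Dppa3 on chromosome 6, Nanog passed, with a smaller difference than Dppa3, and Gdf3 did not. Dppa3 sits between Gdf3, which encodes a growth factor of the TGF-beta family, and Nanog, a central pluripotency factor, in the order of measured genes. Nanog was at 13.69, 13.72 and 13.69 in HAP1, HAP2 and HTG1, against 13.38, 13.14 and 13.17 in diploid replicates 1 to 3. It was 1.39-fold higher in the haploid samples (limma adjusted p = 0.0227) and lost the call when diploid replicate 2 or 3, HAP2 or HTG1 was left out (limma adjusted p = 0.0522 to 0.0906). Gdf3, named after its values were seen, differed by -0.19 ± 0.12 (log2, SE; limma adjusted p = 0.317). Of the 20 measured genes nearest to Dppa3, 10 on each side, 1 passed as higher, which was Nanog, and none as lower, with a median difference of -0.17. Among 8 measured genes listed for the Nanog, Dppa3 and Gdf3 region, 1 was higher and none lower, with a median of -0.08, against -0.03 for all genes. Of all genes 7.92% passed as higher and 6.96% as lower.

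The DNA methylation genes Uhrf1 and Dnmt3a were lower in the haploid samples, and Uhrf1 is the binding partner of Dppa3. Uhrf1, which recruits the maintenance methyltransferase Dnmt1 to newly copied DNA, was at 12.28, 11.95 and 12.21 in HAP1, HAP2 and HTG1, against 12.75, 12.55 and 12.65 in diploid replicates 1 to 3. In the haploid samples Uhrf1 was 1.42-fold lower (log2 difference -0.51 ± 0.12, SE; limma adjusted p = 0.0331). Uhrf1 lost the call when a single diploid replicate, HAP2 or HTG1 was left out (limma adjusted p = 0.0589 to 0.107). The de novo methyltransferase gene Dnmt3a was at 8.23, 7.94 and 8.0 in HAP1, HAP2 and HTG1, against 9.25, 9.82 and 9.64 in diploid replicates 1 to 3.

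Dnmt3a was 2.85-fold lower (limma adjusted p = 0.00319), and its 5 probe sets differed by between -1.51 and -0.37 (log2), with -0.82 for their mean, which passed (limma adjusted p = 0.0176). Dnmt1 and Dnmt3b, also named after their values were seen, differed by -0.18 ± 0.09 and -0.07 ± 0.29 (log2, SE; limma adjusted p = 0.220 and 0.901). Of 11 measured genes listed as Dppa3 partners and DNA methylation enzymes 2 were lower and none higher, with a median difference of -0.08, where 6.96% of all genes passed as lower. Among the rest, Dnmt3l, a cofactor of de novo methylation, was at 9.63, 8.93 and 10.50 in HAP1, HAP2 and HTG1, against 11.27, 10.61 and 10.96 in diploid replicates 1 to 3. It did not pass (log2 difference -1.26, limma adjusted p = 0.0690), and it was chosen for mention after its values were seen. The demethylating enzymes Tet1, Tet2 and Tet3, also named after their values were seen, differed by -0.07, -0.09 and -0.08 and did not pass (limma adjusted p = 0.747, 0.770 and 0.601).

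Dppa2 and Dppa4, adjacent on chromosome 16 in the order of measured genes, did not pass. The chosen probe set of Dppa2 was at 11.62, 11.69 and 11.78 in HAP1, HAP2 and HTG1, against 10.75, 11.33 and 11.50 in diploid replicates 1 to 3 (log2). The groups did not overlap, with 0.12 between the lowest haploid and the highest diploid array. All haploid arrays lay above all diploid arrays for 17.7% of genes.

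The haploid mean of Dppa2 was 11.70 ± 0.08 and the diploid mean 11.19 ± 0.39 (SD, n = 3 each). The log2 difference was 0.51 ± 0.19 (SE), or 1.42-fold with a 95% interval from 1.04-fold to 1.95-fold, and the limma adjusted p was 0.125. The second probe set of Dppa2 gave 11.34, 11.42 and 11.67 in HAP1, HAP2 and HTG1, against 10.28, 10.94 and 11.10 in diploid replicates 1 to 3. It differed by 0.70 ± 0.22 (SE), with a limma adjusted p of 0.0776 when every probe set was tested on its own. Both probe sets ordered the 6 arrays alike.

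Diploid replicate 1 was low for Dppa2 with both probe sets, by 0.67 and 0.74 (log2) below the mean of diploid replicates 2 and 3. Its range of 0.75 across the diploid samples was reached by 4.90% of genes above the median level. Without diploid replicate 1 the haploid minus diploid difference of Dppa2 was 0.28 (limma adjusted p = 0.145). Diploid replicate 1 had the highest mean of feeder markers, as given above, and the part of this in the Dppa2 value was not tested. Chromosome 16 as a whole had median shifts of -0.06, -0.03 and -0.02 in diploid replicates 1 to 3.

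Dppa4, the heterodimer partner of Dppa2, varied little among the diploid samples. It was at 11.55, 11.69 and 11.79 in HAP1, HAP2 and HTG1, against 11.48, 11.55 and 11.53 in diploid replicates 1 to 3. HAP1 and diploid replicate 2 differed by 0.001, so the groups overlapped. The log2 difference was 0.16 ± 0.10 (SE), with a 95% interval from -0.07 to 0.39 and a limma adjusted p of 0.318, which leaves room for at most a 1.31-fold increase within that interval. The diploid range of Dppa4 was 0.07, and 92.5% of genes above the median level had a diploid range as large.

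In HTG1 both genes were at their highest value of the 6 arrays, but the difference of HTG1 from the other haploid lines was 0.13 ± 0.30 for Dppa2 and 0.17 ± 0.14 for Dppa4 (log2, SE; limma adjusted p = 0.979 and 0.838). Genes of the 2-cell stage, a class that the Dppa2 and Dppa4 pair is known to promote, were set beside them. This list was chosen with earlier results of these data known, so its counts are a description and not a test of the class. Of its 16 genes 6 were measured, and no Zscan4 gene was among them. Of 6 measured genes listed for the 2-cell stage, 4 were higher in HTG1 than in HAP1 and HAP2 and none lower, with a median log2 difference of 2.43, where 0.242% of all genes passed as higher. The ubiquitin protease gene Usp17la was at 9.93 in HTG1, against 6.55 and 7.07 in HAP1 and HAP2 and 5.69 to 5.78 in the diploid samples (HTG1 minus HAP lines 3.12, limma adjusted p = 0.00557). Zfp352, a zinc finger gene, was at 7.67 in HTG1, against 5.76 and 5.80 in HAP1 and HAP2 and 5.68 to 5.88 in the diploid samples (1.89, limma adjusted p = 0.00823).

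The other two, Tcstv1 (3.76) and Tcstv3 (2.97), are named because they complete the count. Without diploid replicate 3 Zfp352 and Tcstv3 did not pass (limma adjusted p = 0.0548 and 0.0613), and all 4 rest on the single HTG1 array. Dux itself, listed as Duxf3, was at 4.48 in HTG1, against 4.19 and 4.05 in HAP1 and HAP2 and 4.21 to 4.27 in the diploid samples, all below 4.8, and it was named after its values were seen. Over all 3 haploid lines none of the 6 genes passed against the diploid samples in limma, although 3 had an unadjusted p under 0.05, and the median difference was 1.06. Usp17la passed there without HTG1 (log2 difference 1.06, limma adjusted p = 0.0158).

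The neighbours of Dppa2 and Dppa4 showed no common increase. Of 6 measured genes listed for their region 1 was lower and none higher, with a median difference of -0.18. The lower one was Ift57, a component of intraflagellar transport, at 8.89, 9.21 and 8.85 in HAP1, HAP2 and HTG1, against 9.71, 9.56 and 9.46 in diploid replicates 1 to 3 (log2 difference -0.59 ± 0.13, SE; limma adjusted p = 0.0275). Ift57 lost the call when a single diploid replicate, HAP1 or HTG1 was left out (limma adjusted p = 0.0651 to 0.0835), and its 2 probe sets averaged gave -0.34, which passed (0.0317). Of the 19 other measured genes within 10 places of Dppa2, none was higher and 2 were lower, with differences from -0.59 to 0.37. Around Dppa4 none was higher and 1 was lower, with differences from -0.44 (Tagln3) to 0.93 (Cd200). Dppa2 and Dppa4 are adjacent, so these neighbours are largely the same genes. Of all genes 7.92% passed as higher and 6.96% as lower.

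Dppa5a was among the brightest signals on every array. Its level was 15.12, 15.11 and 15.06 in HAP1, HAP2 and HTG1, against 14.94, 14.82 and 14.83 in diploid replicates 1 to 3 (log2). In HAP1 it was the highest of all probe sets, and in HAP2 and HTG1 it stood at ranks 2 and 3, against ranks 18, 34 and 38 in diploid replicates 1 to 3. The haploid arrays lay above the diploid arrays, as for 17.7% of all genes, with a gap of 0.12. The log2 difference was 0.24 ± 0.09 (SE), or 1.18-fold with a 95% interval from 1.02-fold to 1.36-fold, and the limma adjusted p was 0.119. With trend and robust settings the same difference passed (limma adjusted p = 0.0238).

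Dppa5a lay 0.00, 0.04 and 0.08 under the highest probe set in HAP1, HAP2 and HTG1, against 0.17, 0.33 and 0.31 in diploid replicates 1 to 3. Whether saturation affects these values was not tested. With the median haploid minus diploid difference of chromosome 9 genes (0.09) subtracted Dppa5a differed by 0.14 (limma adjusted p = 0.295). HTG1 differed from HAP1 and HAP2 by -0.06 ± 0.14 (limma adjusted p = 0.981).

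The relatives of Dppa5a on chromosome 9 moved in opposite directions. Ooep, the next measured gene, was at 13.25, 13.48 and 13.53 in HAP1, HAP2 and HTG1, against 11.93, 12.32 and 12.36 in diploid replicates 1 to 3, and rose 2.33-fold (log2 difference 1.22 ± 0.15, SE; limma adjusted p = 0.00429). Khdc3 was at 8.45, 8.94 and 8.38 in HAP1, HAP2 and HTG1, against 10.68, 9.67 and 10.15 in diploid replicates 1 to 3. It fell 2.99-fold (log2 difference -1.58 ± 0.27, SE; limma adjusted p = 0.0120), and did not pass without diploid replicate 3 (-1.59, 0.0551).

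Both are known as oocyte proteins. The lysosomal sialic acid transporter gene Slc17a5, also in that region, was 1.42-fold higher (limma adjusted p = 0.0275). Slc17a5 lost the call when diploid replicate 2 or 3, HAP2 or HTG1 was left out (limma adjusted p = 0.0605 to 0.102). It also lost the call when the median difference of its chromosome was subtracted (limma adjusted p = 0.0513). Of 7 measured genes listed for the region and the KH-domain relatives, 2 were higher and 1 lower, with a median of 0.16, where 7.92% of all genes passed as higher and 6.96% as lower. Khdc1a and Khdc1b, relatives on chromosome 1 that were named after their values were seen, stayed under 4.8 on every array. Dppa5a has the pseudogenes Dppa5b and Dppa5c on the same chromosome, and Dppa3 has the pseudogene Dppa3-ps on chromosome X. Whether their transcripts add to these probe sets was not tested.

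Of 15 measured genes listed as germ line genes under DNA methylation, 2 were higher and 1 lower, where 7.92% of all genes passed as higher and 6.96% as lower. Not all of them were silent in these cells. Tex19.1, named after its values were seen, was at 11.04 to 11.78. The median difference of the 15 genes was 0.46, against -0.03 for all genes, and 13 differences were positive. Taf7l, an X-linked germ line form of a general transcription factor subunit, was at 7.23, 7.16 and 7.23 in HAP1, HAP2 and HTG1, against 5.62, 5.72 and 5.87 in diploid replicates 1 to 3, and rose 2.77-fold (log2 difference 1.47, limma adjusted p = 0.00128). With the median difference of X chromosome genes subtracted it differed by 0.70 and passed (limma adjusted p = 0.00746). Syce1, a component of the synaptonemal complex, was at 8.88, 9.27 and 8.94 in HAP1, HAP2 and HTG1, against 8.30, 8.46 and 8.34 in diploid replicates 1 to 3. It rose 1.58-fold (limma adjusted p = 0.0178) and did not pass without diploid replicate 2 (0.0503) or 3 (0.0732). Tdrkh, which acts in the piRNA pathway, fell 1.95-fold (limma adjusted p = 0.00459).

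Core pluripotency factors that passed did so as higher in the haploid samples. Of 12 core pluripotency factors 5 were higher and none lower, with a median difference of 0.44, where 7.92% of all genes passed as higher. Prdm14, a repressor of de novo methylation genes in ES cells, was at 11.16, 11.01 and 11.23 in HAP1, HAP2 and HTG1, against 10.16, 10.15 and 10.10 in diploid replicates 1 to 3, and rose 1.99-fold (limma adjusted p = 0.00232). Klf4 rose 1.60-fold (limma adjusted p = 0.00540). Pou5f1 rose 1.32-fold (limma adjusted p = 0.0246) and lost the call under 7 of 15 alternatives (limma adjusted p = 0.0503 to 0.0874). These were repeated quantile normalization, subtraction of the chromosome's median difference, and omission of diploid replicate 2 or 3 or of any single haploid line. Klf5 rose 1.56-fold by its brightest probe set (limma adjusted p = 0.0327), but its 3 probe sets differed by between -0.12 and 0.64 (log2), and it did not pass with their mean (0.152), without those of its probe sets that may match several transcripts (0.598), or when a single diploid replicate, HAP2 or HTG1 was left out (0.0699 to 0.099). Of 13 measured genes listed as early ES-cell-associated transcripts, 1 was higher and none lower, again Nanog, with a median of 0.00.

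**Figure D3:**
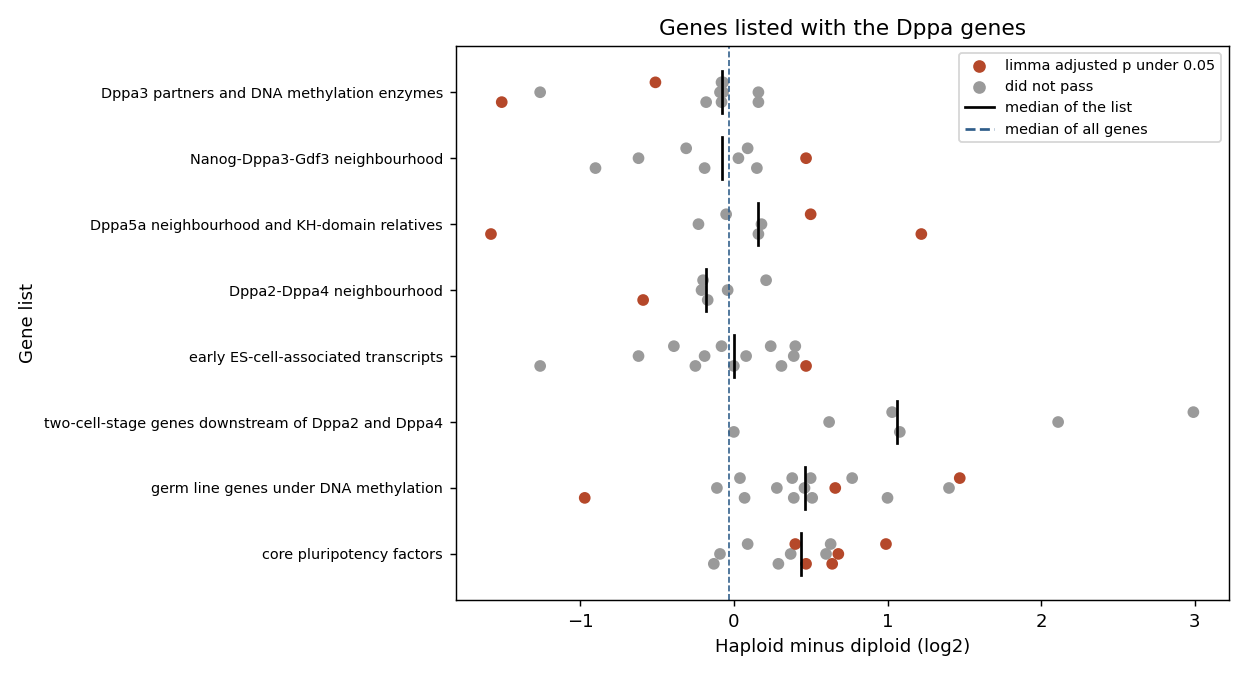
Haploid minus diploid differences (log2, horizontal axis) of the genes in 8 lists (rows); red points passed a limma adjusted p of 0.05, grey points did not, black lines mark list medians and the dashed line the median of all genes (-0.03). Ooep at 1.22 and Khdc3 at -1.58 lie at opposite ends of their row, and the 2-cell-stage row has the highest median (1.06) with no gene passing.

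The 4 genes had unlike profiles over the 6 arrays. After each gene was centred on its own mean, Dppa4 and Dppa5a were the closest pair (root mean square difference 0.113, log2). Both varied little, with root mean squares of 0.108 and 0.126 of their own, so this distance does not show a shared profile. Dppa2 and Dppa4 differed by 0.273, and Dppa3 differed from the others by 1.33 to 1.42. Among all genes above the median level, those closest to Dppa3 were Rhox6 (0.393), Ptges (0.403), Rhox5 (0.453), Abca1 (0.458) and 8030474K03Rik (0.461). Against a root mean square of 1.46 for Dppa3 itself, these were loose matches. The genes Rhox6, Rhox5 and 8030474K03Rik are X-linked. Subtracting the median haploid minus diploid difference of X chromosome genes lowered the X-linked Taf7l from 1.47 to 0.70 (log2). The part of that chromosome-wide difference in these matches was not tested. In Rhox6 and Ptges HTG1 lay at -0.43 and -0.27 from the gene's mean, nearer to diploid replicate 1 (-0.58 and -0.40) than to HAP1 (2.22 and 1.84) and HAP2 (1.46 and 1.37).

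The genes closest to Dppa2 were Clcn7, Rundc3b, Ctbp2, Trim39 and Zfp185, at 0.078 to 0.093, and in each of them diploid replicate 1 was the lowest array, between -0.79 and -0.56. Those closest to Dppa4 were Kbtbd2, Azin1, Nap1l1, Mat2b and Nedd4l, at 0.017 to 0.031. Those closest to Dppa5a were Atp5d, Stx18, Cep20, Cux2 and Cyhr1, at 0.026 to 0.030. The root mean squares of Dppa2, Dppa4 and Dppa5a themselves were 0.344, 0.108 and 0.126. All distances over the 6 arrays share the arrays and their normalization and are a description only.

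**Figure D4:**
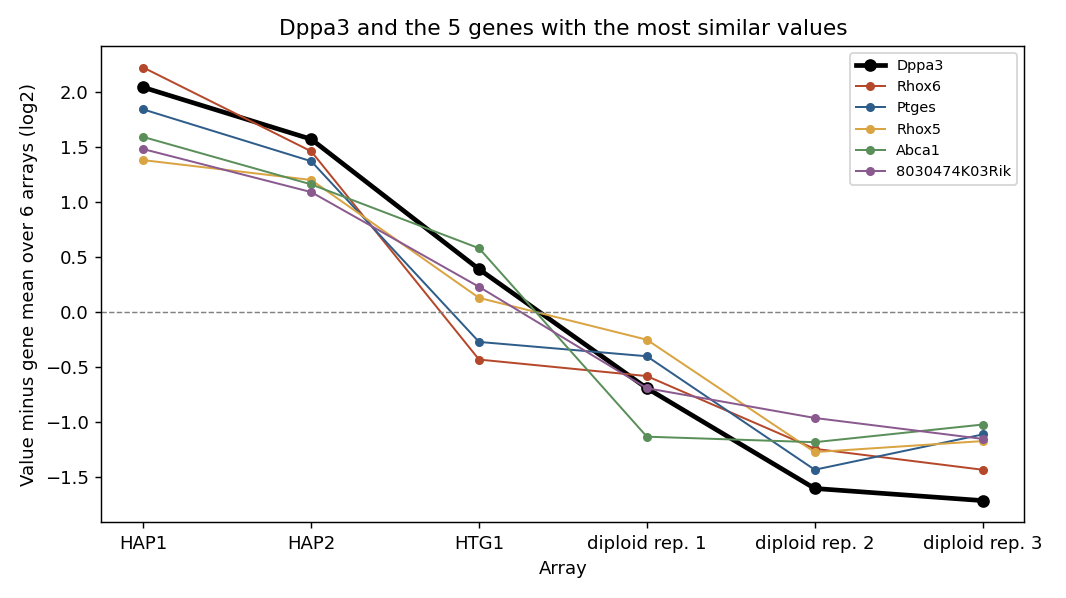
Values of Dppa3 (black) and of the 5 genes closest to it, each minus the gene's own mean over 6 arrays (log2, vertical axis), by array (horizontal axis, haploid lines to the left). Dppa3 lies in the order HAP1 (2.04), HAP2 (1.57), HTG1 (0.39), diploid replicate 1 (-0.69), 2 (-1.60) and 3 (-1.71), and Rhox6 and Ptges are below their means in HTG1.

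The direction of all 4 members was positive under each of the 15 alternative settings tried. Dppa3 stayed between 2.31 and 3.14 (log2), Dppa2 between 0.28 and 0.66, Dppa4 between 0.06 and 0.22 and Dppa5a between 0.14 and 0.27. Dppa2 and Dppa4 passed under none of these settings.

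**Figure D5:**
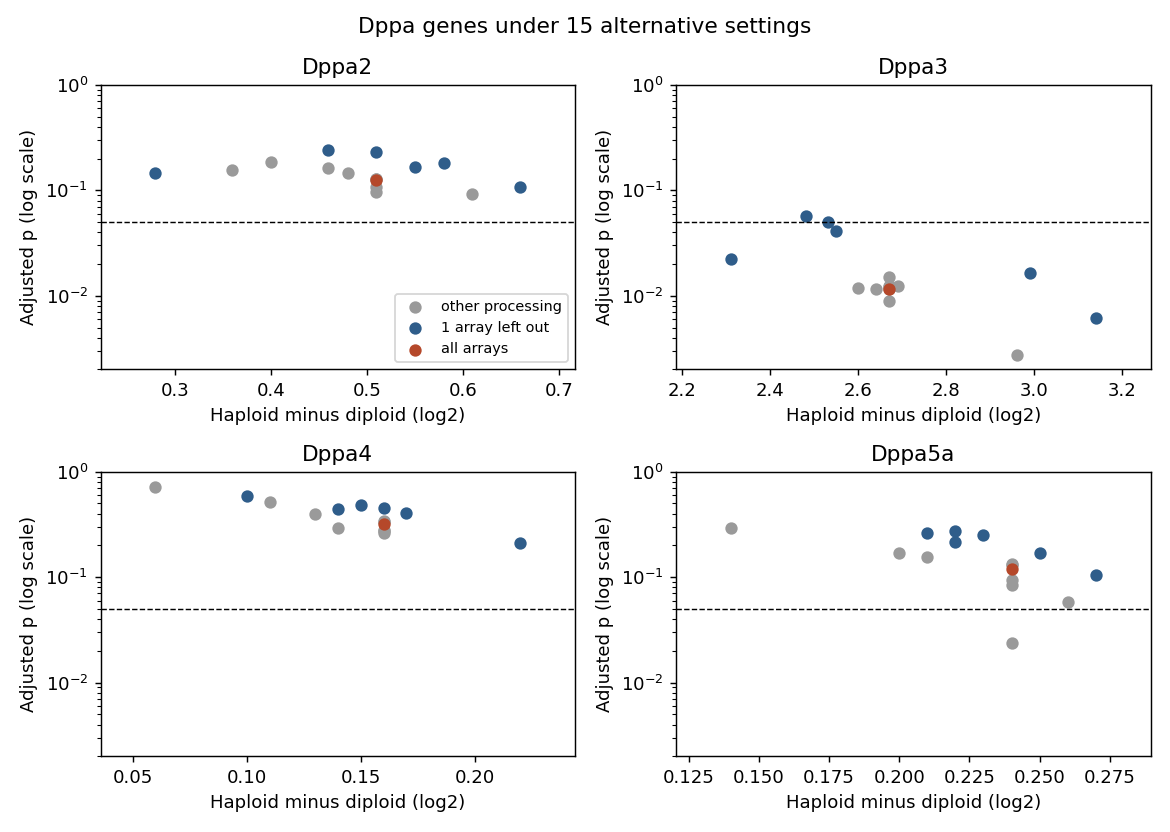
Haploid minus diploid difference (log2, horizontal axis, scaled for each gene) against the limma adjusted p (log-scaled vertical axis) for each Dppa gene with all arrays (red), with 1 array left out (blue) and under other processing (grey); the dashed line is 0.05. Dppa3 lies under the line except for 2 blue points at 0.0503 and 0.0572, and Dppa5a has 1 grey point under it at 0.0238.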

How the data were processed

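The deposited table holds log2 values, made by the authors with RMA per the submitters' processing notes, for 45101 probe sets on 6 arrays. Its software and settings are not given in the sources used here. RMA sets arrays to a common distribution and compresses large differences of dim genes.

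Symbols came from the platform annotation (34945 probe sets with 1 symbol, 932 with several, 9160 with none, 64 controls left out), and chromosomes and gene order from RefSeq for GRCm38.p6. No coordinates are given, since the build behind the arrays is not stated. Haploid replicates 1, 2 and 3 are HAP1, HAP2 and HTG1.

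Differences were tested in R 4.3.3 with limma 3.58.1 (lmFit and eBayes, two-sided, no covariate) over 18193 genes, with Benjamini-Hochberg adjustment and a threshold of 0.05. A 3-group fit gave the contrasts with HTG1; those against the diploid samples were added after the data were examined. The limma step was tested on simulated data.

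The members and lists were chosen with earlier results of these data known. The naming rule took all members, up to 4 passing genes per list (otherwise the 2 with the highest mean) and the 5 nearest genes per member. The text names part of these, not every passing marker, and some genes outside the rule (Gdf3, Dnmt1 and others marked where they appear), which were named after their values were seen. Alternatives covered normalization, dim genes, probe set choice, variance model, chromosome median differences and omission of each array. The chromosome median differences were subtracted as they stood, not relative to autosomal genes.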

Additional observations from a re-analysis of the deposited data

How the results depend on the processing

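Between haploid and diploid samples 2707 of 18193 genes passed. When every probe set was tested on its own, 4687 of 34945 probe sets passed, so these 2 counts have unlike totals. The number of genes passing ranged from 970 to 2428 when 1 array was left out, where 970 is the value without diploid replicate 3. It was 1196 when diploid replicate 2 was omitted and 1429 when HAP2 was. For Dppa3 the difference ranged from 2.31 to 3.14 (log2) when 1 array was left out, and it did not pass without diploid replicate 2 or 3. Dppa5a passed only with trend and robust settings, at 0.24. For HTG1 against HAP1 and HAP2, 68 genes passed, against 26 among genes above the median level, 106 with array weights and 25 to 123 when 1 array was left out, namely 33 and 25 without diploid replicates 2 and 3 and 123 without HAP2. The count of 26 came from the 9096 genes above the median level and that of 68 from all 18193, so these 2 counts also have unlike totals. Zfp352 differed between haploid and diploid samples by 0.62 on all arrays and by -0.01 to 0.94 when 1 array was left out, the lowest value without HTG1. The causes were not tested. No paired analysis was possible because the haploid titles carry line names and no replicate numbers. The number of arrays limits what could be detected.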
